A study of Homo sapiens with 6 samples.

Results

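The 10 genes described here encode ligands, receptors and regulators of the epidermal growth factor (EGF) receptor family in MDA-MB-231, an established human triple-negative breast cancer cell line. They were chosen by name, with earlier results of these data known. They are AREG, EREG, HBEGF, TGFA and BTC among the ligands, EGFR, ERBB2 and ERBB3 among the receptors, the receptor inhibitor ERRFI1 and the ligand-releasing protease ADAM17. All 10 were found among the 58735 rows of the deposited tables, and all 10 passed the filter on low counts that left 15881 genes for testing. Wild-type cells were stained with PKH26, a membrane dye diluted at each division, and chased in serum-containing medium for 12 days with no drug or gene perturbation named for either group. The slow-cycling cells (SCC) were the 1% with the brightest dye, and the rapid-cycling cells (RCC) were named as moderate in dye by the sorting protocol and as low in dye by the sample characteristics. Each group had 3 RNA-seq libraries, called biological replicates in the series' design text. Whether they came from separate stainings or sorts was not given, so p-values measure the spread between these libraries. The question of the comparison is how gene expression in slow-cycling cells differs from that in cycling cells, with AP-1 transcription factors named in the series title.

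The ligands are made as membrane-bound precursors, and ADAM17 cuts most of them from the cell surface so that they can act on the same cell or its neighbours. Binding leads receptors to pair and to phosphorylate each other, which drives the RAS-ERK and PI3K-AKT pathways. ERBB2 has no known ligand and acts as a partner, ERBB3 has little kinase activity of its own and binds neuregulins, and ERRFI1 is a feedback protein that binds the active EGFR kinase and blocks it. AREG, EREG, HBEGF and ERRFI1 are themselves known to be induced when the receptor or ERK is active, and triple-negative lines are known for high EGFR.

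Libraries held 17655855 to 27831824 summed counts. Markers written down for the line (VIM, CD44, AXL, CAV1 and MSN) summed to 3631 to 3733 CPM (counts relative to library totals adjusted by TMM, the trimmed mean of M values) in SCC and 3518 to 3728 in RCC. Of 8 luminal breast markers, the hormone receptor genes ESR1 and PGR and the cadherin gene CDH1 were under 1 CPM in every library. The list summed to 615 to 674 CPM in SCC and 530 to 558 in RCC. Most of this sum was the keratins KRT8 (mean 400 CPM in SCC, 334 in RCC) and KRT18 (213 and 192). FOXA1 (10.2 and 7.47) and GATA3 (8.91 and 7.67) were lower in level, and EPCAM (4.33 and 4.99) had the lower mean in SCC. The 5 leukocyte markers summed to at most 3.0 CPM in any library, and 5 stromal and endothelial markers to 28.2 to 33.3 CPM in SCC and 23.2 to 26.4 in RCC. Mitochondrial genes took 4.45% to 4.75% of counts in SCC and 3.77% to 3.95% in RCC. The mitochondrial share and the luminal and stromal sums move with the group, and their part in the results below was not tested. SCC replicate 1 stood apart from the other libraries in GC content: in the decile of tested genes richest in GC its log2 level was 0.39 above the mean of SCC replicates 2 and 3 by the median, and in the decile poorest in GC the difference was -0.24. The log2 fold change of SCC over RCC also ran with GC content, from a median of -0.15 in the poorest decile to 0.25 in the richest. Against the mean of all 6 libraries, the richest decile was at 0.40 in SCC replicate 1. It was at -0.066 and 0.027 in SCC replicates 2 and 3, and at -0.16 to -0.049 in RCC. Results that rest on SCC replicate 1 are given with and without it, and with an offset that removes each library's trend with GC content.

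Promoter sequences are shown for the 3 genes whose call turned on SCC replicate 1 (HBEGF, ERRFI1 and EREG) and for AREG, the tandem neighbour of EREG. They come from RefSeq on GRCh38.p14, which held a promoter for 9 of the 10 genes, in 11 windows because TGFA and EGFR had a pair each; ERBB3 was not among them. Each line gives 200 bases on the gene's strand that end just upstream of both the RefSeq and the GENCODE start, with matches of 4 motifs on either strand in capitals: the AP-1 site TGANTCA, the cAMP response element TGACGTCA, the GC box GGGCGG and the TATA box, spelled TATAAA.
HBEGF promoter, chr5:140346632-140346831, minus strand: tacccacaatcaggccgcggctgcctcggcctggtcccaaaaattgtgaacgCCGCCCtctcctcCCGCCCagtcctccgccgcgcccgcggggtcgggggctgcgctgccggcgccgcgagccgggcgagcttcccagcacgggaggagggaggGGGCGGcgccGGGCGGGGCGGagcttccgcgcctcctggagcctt
ERRFI1 promoter, chr1:8026310-8026509, minus strand: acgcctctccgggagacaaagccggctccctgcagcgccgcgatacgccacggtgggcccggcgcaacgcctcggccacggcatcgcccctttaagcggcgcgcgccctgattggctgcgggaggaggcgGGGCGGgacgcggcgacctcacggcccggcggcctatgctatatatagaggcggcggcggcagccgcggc
EREG promoter, chr4:74364943-74365142, plus strand: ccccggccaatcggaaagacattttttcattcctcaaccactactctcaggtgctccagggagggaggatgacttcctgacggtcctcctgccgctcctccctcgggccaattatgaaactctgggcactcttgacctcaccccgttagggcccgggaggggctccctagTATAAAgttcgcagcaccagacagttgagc
AREG promoter, chr4:74444934-74445133, plus strand: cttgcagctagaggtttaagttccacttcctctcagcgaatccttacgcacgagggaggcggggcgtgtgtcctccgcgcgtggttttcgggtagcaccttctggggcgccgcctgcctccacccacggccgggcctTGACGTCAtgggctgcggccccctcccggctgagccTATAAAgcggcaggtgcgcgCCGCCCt

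The 2 tandem ligand genes had a TATA box close to the start, 32 bases upstream of the RefSeq start in EREG and 29 in AREG, and AREG also had a cAMP response element at 65 bases. HBEGF had neither and held 5 GC boxes, of which the pair nearest the start overlap, and ERRFI1 held 1. Only the spelling TATAAA was searched for as a TATA box. Other spellings, such as the tatatata close to the ERRFI1 start, are not marked. Over the 250 bases upstream of each RefSeq start, TGANTCA was found in 2 of the 11 windows, those of ERBB2 and of the downstream EGFR start, against 6.57% of 35116 promoters. TGACGTCA was found in 1 (AREG) against 1.65%, GGGCGG in 6 against 42.6%, and TATAAA in 3 against 10.7%. These matches describe letters in the windows and were not tested against expression.

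By level, ERRFI1 and EGFR led and BTC and ERBB3 were barely expressed. Levels of different genes are given in FPKM, the authors' unit scaled by gene length and library depth, as the range over the 6 libraries. ERRFI1 lay between 82.7 and 100.3 FPKM, EGFR between 59.2 and 63.5, HBEGF between 33.3 and 43.2, and EREG between 24.9 and 30.8. These 4 ranges did not touch, so their order held in every library. ERBB2 (6.88 to 10.2 FPKM) and TGFA (5.97 to 7.65) overlapped, as did ADAM17 (4.34 to 5.01) and AREG (4.46 to 5.37). ERBB3 (0.326 to 0.501) and BTC (0.319 to 0.475) overlapped as well, and the mean of AREG was 11.0 times that of ERBB3, the next gene in the order.

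**Figure D1:**
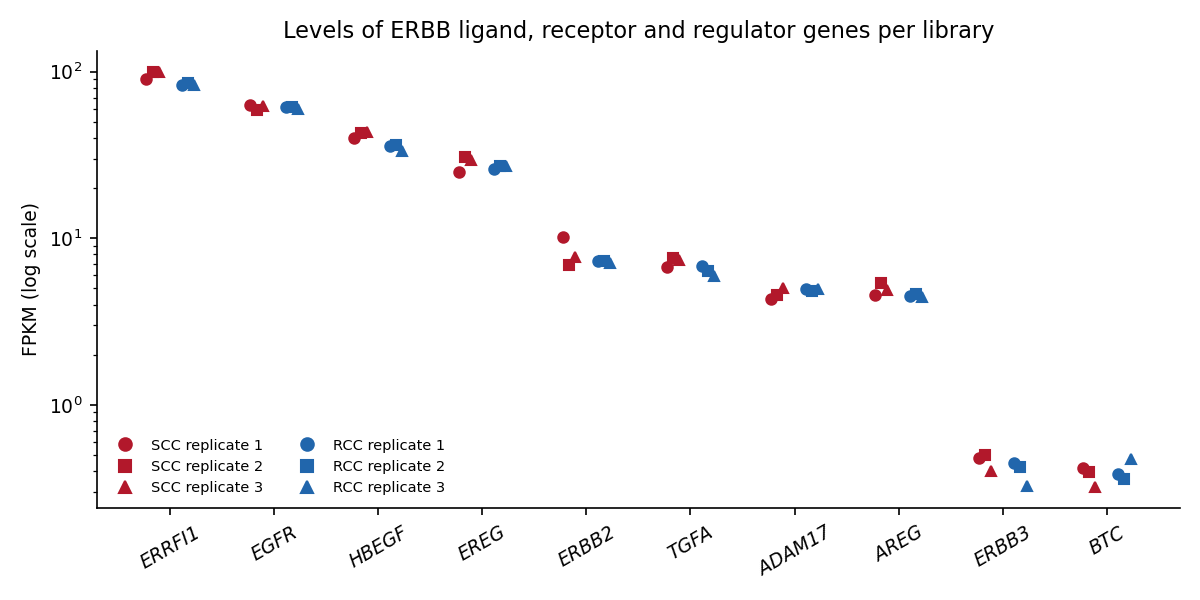
FPKM of the 10 genes (log axis), ordered by mean, with 1 point per library for SCC (red) and RCC (blue). ERRFI1 lay between 82.7 and 100.3 FPKM and BTC between 0.319 and 0.475, and the libraries of the groups sat close together for each gene.

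With all 6 libraries, the filter on low counts and no GC offset, none of the 10 genes passed the test between SCC and RCC. The count was 0 higher and 0 lower by edgeR's quasi-likelihood test at an adjusted p under 0.05, and also 0 by DESeq2, where 2.51% of genes were called higher, and by limma on FPKM. The limma fits called 1.04% of genes higher on log2(FPKM + 1), 0.938% on log2(FPKM + 0.1) and 0.128% without a filter, and their filtered versions left out BTC and ERBB3. Among all tested genes 2.07% were called, 1.69% higher (268 genes) and 0.378% lower (60 genes), or 523 higher and 245 lower with the GC offset. At an unadjusted p under 0.05, 2 of the 10 (HBEGF and ERRFI1) were higher and 0 lower, beside 11.4% higher and 8.27% lower (19.7% in all) among tested genes. In 8 of the 10 the log2 fold change was above 0, beside 50.5% of tested genes, and the median was 0.16, beside 0.00. In AREG, HBEGF and ERRFI1 the CPM of the groups did not overlap, with SCC higher in all 3, beside 14.4% of tested genes with SCC higher and 27.8% in either direction. In bulk libraries such as these, fewer cells expressing a gene and less of its RNA per cell cannot be told apart.

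Without SCC replicate 1, 3 of the 10 genes were called higher in SCC by edgeR: HBEGF, EREG and ERRFI1, beside 3.93% of the genes tested in that fit. With all 6 libraries and the GC offset, the called genes were again HBEGF, EREG and ERRFI1, beside 3.29%. Leaving out any other single library gave 0 calls among the 10, where 3.57% of genes were called higher without SCC replicate 2, 1.09% without SCC replicate 3, and 0.608%, 0.602% and 0.63% without RCC replicates 1, 2 and 3. With SCC replicate 1 left out and the GC offset together, a setting chosen after seeing the data, TGFA was called as well (log2 fold change 0.26, adjusted p 0.0403), beside 3.95%.

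**Figure D2:**
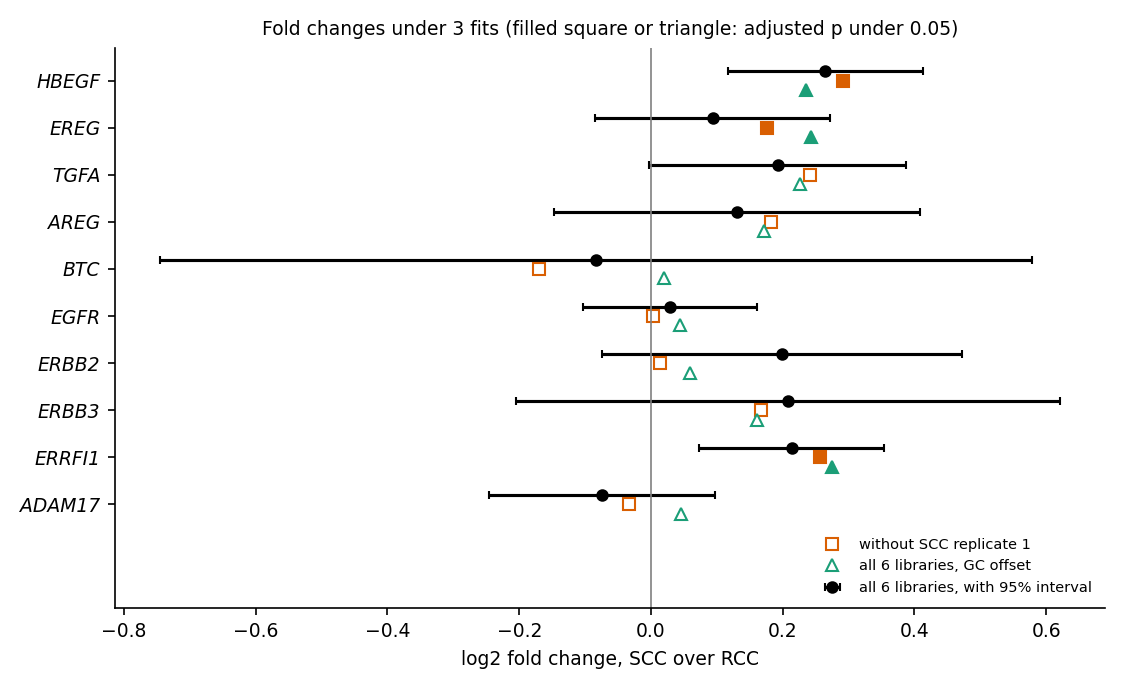
Log2 fold change of SCC over RCC for each of the 10 genes with all 6 libraries (black, bar: 95% interval), without SCC replicate 1 (orange squares) and with the GC offset (green triangles), where filled symbols have an adjusted p under 0.05. HBEGF, EREG and ERRFI1 are filled in both alternatives, and their main intervals reach from 0.12 to 0.41, -0.08 to 0.27 and 0.07 to 0.35.

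HBEGF (ENSG00000113070, chromosome 5, 140332843 to 140346631 on GRCh38) encodes a heparin-binding ligand of EGFR. It was the ligand with the smallest p. It stood at 123, 130 and 131 CPM in SCC replicates 1 to 3 and at 108, 109 and 101 CPM in RCC. All SCC libraries lay above all RCC libraries. The means were 128 ± 4.06 and 106 ± 4.72 CPM (SD, n = 3), a log2 fold change of 0.26 with a standard error of 0.067, or 1.2-fold (95% interval 1.08 to 1.33). Its adjusted p of 0.0751 missed the threshold with all libraries, the count filter and no GC offset. It was 5.7e-04 without SCC replicate 1 (log2 fold change 0.29) and 0.0226 with the GC offset (0.24). It was also called with no count filter (adjusted p 0.0454), where 2.65% of genes were called higher. Over the 18 alternatives run the log2 fold change lay between 0.22 and 0.29 and the adjusted p between 2.0e-04 and 0.302.

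EREG (ENSG00000124882, chromosome 4, 74365143 to 74388751) encodes epiregulin, a ligand of EGFR and ERBB4, and was the second most abundant ligand. Its CPM was 144, 177 and 168 in SCC replicates 1 to 3 and 149, 154 and 155 in RCC. SCC replicate 1 was the lowest of all 6 libraries, and SCC replicates 2 and 3 were the highest. The means were 163 ± 17.0 and 153 ± 3.04 CPM (SD, n = 3), for a log2 fold change of 0.094 (standard error 0.081, adjusted p 0.526). Without SCC replicate 1 it was 0.18 (adjusted p 0.0252), without SCC replicate 2 it was 0.017 (0.916), and with the GC offset 0.24 (0.00542). The adjusted p ran from 3.7e-04 to 0.916 over the alternatives. The EREG transcript is poor in GC, at 36.1%, lower than all but 3.58% of tested genes.

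TGFA (ENSG00000163235, chromosome 2, 70447280 to 70554193), the gene of transforming growth factor alpha, was at 33.8, 38.1 and 37.0 CPM in SCC and 34.0, 31.4 and 29.7 CPM in RCC. Only SCC replicate 1 fell within the range of the RCC libraries. Its log2 fold change of 0.19 had a 95% interval from -0.0026 to 0.39 (adjusted p 0.259, and 0.0403 to 0.603 over the alternatives). AREG (ENSG00000109321, chromosome 4, 74445134 to 74455009), the gene of amphiregulin, was at 7.63, 8.88 and 8.05 CPM in SCC and 7.42, 7.58 and 7.37 in RCC. The groups did not overlap on this scale, and the gap between them was within counting error. By CPM of the summed counts, before TMM scaling, SCC replicate 1 was at 7.40 (95% Wilson interval 6.46 to 8.48), below the 7.59 of RCC replicate 2 (6.49 to 8.86). AREG had a log2 fold change of 0.13 (interval -0.15 to 0.41, adjusted p 0.573), and 0.056 without SCC replicate 2.

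BTC (ENSG00000174808, chromosome 4, 74744759 to 74794686), the gene of betacellulin, had only 19 to 32 counts per library. That is 0.898 CPM of the summed counts in SCC replicate 3 (95% Wilson interval 0.575 to 1.40) and 1.36 in RCC replicate 3 (0.914 to 2.02), the lowest and highest libraries. With no molecular identifiers on the reads, such intervals describe counting error alone. The log2 fold change of -0.08 had an interval from -0.75 to 0.58 (adjusted p 0.897), so differences within that interval remain compatible with these libraries. The sign changed with the GC offset (0.021) and without SCC replicate 3 (0.013) or RCC replicate 3 (0.029).

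HBEGF and EREG made up most of the ligand RNA in both groups. The summed FPKM of the 5 ligands was 76.8, 87.1 and 85.2 in SCC and 73.3, 74.8 and 71.3 in RCC, so that the groups did not overlap. HBEGF took 52.4%, 49.2% and 50.7% of this sum in SCC and 48.7%, 48.7% and 46.7% in RCC. All SCC shares of HBEGF lay above all RCC shares, by a narrow gap (49.2% against 48.7%). The highest was in SCC replicate 1, where EREG, poor in GC, had its lowest share (32.4%). By CPM, non-overlap with SCC higher was found in 14.4% of tested genes. EREG took 34.1% ± 1.56 of the sum in SCC, beside 36.5% ± 1.33 in RCC (SD, n = 3). The share of TGFA was 8.76% ± 0.021 against 8.72% ± 0.49. The shares of AREG (5.95% and 6.18%) and BTC (0.457% and 0.555%) were small in both groups. No test was run on these sums and shares, since the genes were chosen with results of these data known.

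EGFR (ENSG00000146648, chromosome 7, 55019021 to 55211628), the receptor of all 5 ligands, differed little between the groups. It stood at 806, 744 and 784 CPM in SCC and 772, 762 and 754 CPM in RCC. The RCC libraries lay inside the range of the SCC libraries. The means were 778 ± 31.5 and 763 ± 8.98 CPM (SD, n = 3), a log2 fold change of 0.03 with a standard error of 0.060 (adjusted p 0.811). The 95% interval ran from 0.931-fold to 1.12-fold, and the log2 fold change stayed between 0.0030 and 0.046 in the alternatives. By FPKM, EGFR made up 87.6% ± 1.74 of the summed RNA of EGFR, ERBB2, ERBB3 and ERBB4 in SCC and 88.8% ± 0.16 in RCC (SD, n = 3).

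ERBB2 (ENSG00000141736, chromosome 17, 39687914 to 39730426), the partner receptor without a ligand, rested on SCC replicate 1. Its CPM was 106, 71.2 and 79.6 in SCC and 76.1, 74.8 and 73.4 in RCC. SCC replicate 1 was the highest library and SCC replicate 2 the lowest. The log2 fold change of 0.20 (standard error 0.12, adjusted p 0.383) became 0.014 when SCC replicate 1 was left out (adjusted p 0.938) and 0.060 under the GC offset (0.692). The transcript is rich in GC, at 57.5%, above 79.2% of tested genes. PGAP3 overlaps ERBB2 over 8884 bases on the opposite strand, and its counts were also highest in SCC replicate 1, at 329 against 130 to 185 in the other 5 libraries. MIEN1 overlaps ERBB2 on the opposite strand over 1931 bases, with 402 counts in SCC replicate 1 against 254 to 387 in the other 5. These counts are not scaled for depth, and SCC replicate 1 was also the deepest library (27831824 summed counts). The use of strand in counting was not given in the sources used here, so the values of these genes are uncertain where they overlap.

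ERBB3 (ENSG00000065361, chromosome 12, 56076799 to 56103505), the neuregulin-binding receptor, was at 4.41, 4.54 and 3.65 CPM in SCC and 4.08, 3.82 and 2.96 CPM in RCC. The groups overlapped. The log2 fold change was 0.21 with an interval from -0.21 to 0.62 (adjusted p 0.546), at 53 to 119 counts per library. Without RCC replicate 3 it was 0.080.

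**Figure D3:**
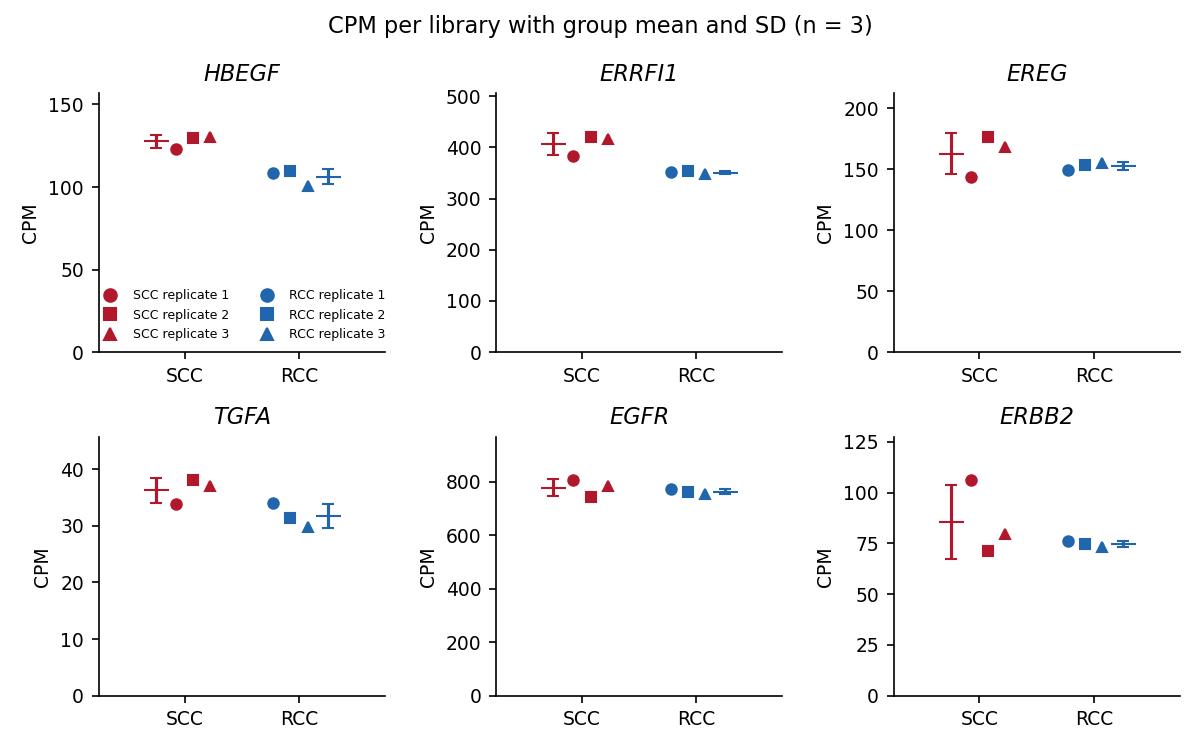
CPM of HBEGF, ERRFI1, EREG, TGFA, EGFR and ERBB2 (linear axes from 0) with 1 point per library, and the mean with its SD beside each group. The SCC points lie above the RCC points in HBEGF (123 to 131 against 101 to 109) and ERRFI1, and in ERBB2 only SCC replicate 1 (106) stands off.

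ERRFI1 (ENSG00000116285, chromosome 1, 8004404 to 8026308), which blocks the active EGFR kinase, stood at 382, 421 and 417 CPM in SCC and 351, 354 and 347 CPM in RCC. All SCC libraries lay above all RCC libraries, with SCC replicate 1 the nearest to them. The means were 407 ± 21.3 and 351 ± 3.35 CPM (SD, n = 3), a log2 fold change of 0.21 with a standard error of 0.064, or 1.16-fold (95% interval 1.05 to 1.28). The adjusted p was 0.115 with all libraries and no GC offset, 2.9e-04 without SCC replicate 1 (log2 fold change 0.26) and 0.00145 with the GC offset (0.27). It ran from 7.1e-06 to 0.418 over the alternatives, with log2 fold changes from 0.17 to 0.28. An antisense gene, AL034417.4, overlaps its end by 909 bases and had 31 to 53 counts per library against 6217 to 10322 for ERRFI1.

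ADAM17 (ENSG00000151694, chromosome 2, 9488486 to 9556732), the main protease for releasing the ligands, was at 47.2, 49.0 and 53.9 CPM in SCC and 53.3, 51.6 and 53.2 CPM in RCC. SCC replicates 1 and 2 were the lowest libraries and SCC replicate 3 the highest, so the groups overlapped. The log2 fold change of -0.075 had an interval from -0.25 to 0.10 (adjusted p 0.605), and its sign changed with the GC offset (0.046). It was -0.14 without SCC replicate 3 and -0.033 without SCC replicate 1. IAH1 overlaps ADAM17 over 8058 bases on the opposite strand, with 570 to 833 counts per library.

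The deviation of SCC replicate 1 within its group ran with GC content among the 10 genes as among all genes. On log2(CPM + 0.5), SCC replicate 1 differed from the mean of SCC replicates 2 and 3 by -0.26 in EREG and by 0.49 in ERBB2, the genes with the lowest and highest GC content. ERRFI1, AREG and TGFA, of 43.4% to 45.9% GC, differed by -0.13, -0.14 and -0.15. HBEGF, at 50.9% GC, differed by -0.079, whereas the decile of tested genes that holds it, with a median GC content of 49.6%, differed by a median of 0.037. Pearson's r between GC content and this difference was 0.69 over the 10 genes, which share the same libraries, and 0.84 without BTC, the gene with the fewest counts.

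**Figure D4:**
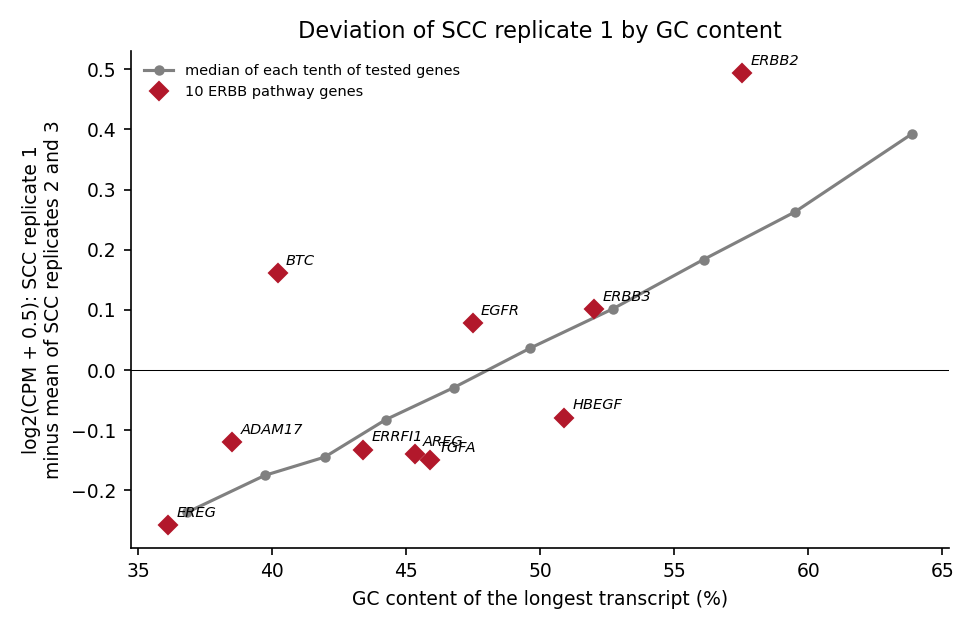
Difference in log2(CPM + 0.5) between SCC replicate 1 and the mean of SCC replicates 2 and 3 (y axis) against GC content of the longest transcript (x axis), for the 10 genes (red) and as the median of each decile of tested genes (grey). The grey line climbs from -0.24 to 0.39, with EREG (-0.26) at its lower end and ERBB2 (0.49) above it at the upper end.

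Most other genes of the pathway, listed by role with earlier results of these data known, were also not called. Of 79 listed genes 73 were tested, and 1 was called higher and 1 lower, beside 1.69% and 0.378% of all tested genes. The higher gene was EGR1 (ENSG00000120738), an immediate early transcription factor induced by ERK. It was at 295, 208 and 201 CPM in SCC and 67.4, 60.9 and 63.3 CPM in RCC. The groups were far apart, with SCC replicate 1 the highest, for a log2 fold change of 1.88 (standard error 0.13, adjusted p 2.6e-05). The lower gene was SOCS4 (ENSG00000180008), which encodes a protein known to promote EGFR degradation. It was at 94.9, 114 and 105 CPM in SCC and 140, 133 and 130 CPM in RCC. The groups did not overlap, for a log2 fold change of -0.36 (standard error 0.079, adjusted p 0.0466). Its call was lost when SCC replicate 3 (adjusted p 0.124) or RCC replicate 1 (0.231), 2 (0.181) or 3 (0.166) was left out, with log2 fold changes of -0.37, -0.34, -0.37 and -0.39. It was also lost by limma on FPKM (adjusted p 0.114 to 0.302, log2 fold changes from -0.35 to -0.36). With the GC offset SOCS4 was called at -0.19 on the log2 scale (adjusted p 0.0328).

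The remaining ERBB ligands and ERBB4 were mostly low. Of these 7 genes 4 were tested, and 0 were called in either direction. NRG2, a neuregulin gene, led them by p, at 9.18, 7.81 and 8.19 CPM in SCC and 5.03, 4.91 and 7.26 CPM in RCC. Its log2 fold change of 0.56 (interval 0.19 to 0.94) had an adjusted p of 0.123, and of 0.0238 to 0.519 over the alternatives, with 0.36 on the log2 scale under the GC offset. ERBB4, the remaining receptor, had 23 counts in SCC replicate 2 and 1 to 8 in the other 5 libraries, and EPGN, the neighbour of EREG, had 4 to 12; neither passed the filter.

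The 12 genes of ligand shedding and trafficking, with ADAM10 and the inactive rhomboids RHBDF1 and RHBDF2 that escort ADAM17, gave 0 calls among 11 tested, and at an unadjusted p under 0.05 held 3 higher genes and 1 lower, beside 11.4% and 8.27% of all tested genes. TIMP3, an inhibitor of ADAM17, had the smallest p, at 62.4, 59.9 and 61.6 CPM in SCC and 51.5, 51.8 and 52.3 CPM in RCC. The groups did not overlap (log2 fold change 0.24, adjusted p 0.102), and the gene was called when SCC replicate 1 was left out (adjusted p 0.0264) or the GC offset was used (0.0197). Receptor downregulation gave 18 tested genes, with SOCS4 the only call and a median log2 fold change of -0.06.

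Adaptors and RAS-ERK kinases gave 0 calls among 17 tested genes, with a median log2 fold change of 0.070, and at an unadjusted p under 0.05 held 3 higher genes and 1 lower, beside the same shares. SHC1, an adaptor recruited to the phosphorylated receptor, had the smallest p. Its mean was 312 ± 24.1 CPM in SCC against 265 ± 5.18 in RCC (SD, n = 3), a log2 difference of 0.23 (adjusted p 0.12). Leaving out SCC replicate 1 brought it past the threshold at a log2 difference of 0.17 (adjusted p 0.0214), and with the GC offset it was not called (0.12, adjusted p 0.137). PI3K-AKT and PLC-gamma genes gave 0 calls among 11, also 0 at an unadjusted p under 0.05. AKT1 had the smallest p there, and its log2 fold change of 0.16 (adjusted p 0.289) changed sign with the GC offset (-0.049).

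Of 12 ERK output genes, which rise when ERK is active and include the phosphatases DUSP4, DUSP5 and DUSP6 and the inhibitors SPRY2 and SPRY4, EGR1 was the only call with all 6 libraries. With all 6 libraries the log2 fold change was above 0 in all 12, beside 50.5% of all tested genes, with a median of 0.078. Not every sign held apart from SCC replicate 1. PHLDA1 was at 560 CPM in that library, and SCC replicates 2 and 3 (500 and 490) lay below the RCC libraries (502 to 510). In SPRY4 (277 and 266 CPM), DUSP5 (83.6 and 89.7) and ETV5 (68.8 and 71.5) SCC replicates 2 and 3 lay within the RCC range. SCC replicate 2 lay below all RCC libraries in DUSP4, ETV4 and CCND1 (238, 65.8 and 707 CPM). SCC replicate 3 lay above them in DUSP4 and CCND1 (258 and 737 CPM). Only in SPRY2, DUSP6 and EGR1 did SCC replicates 2 and 3 both lie above all RCC libraries. For SPRY2 they were at 48.5 and 49.0 CPM against 42.5 to 44.6. At an unadjusted p under 0.05, 1 of the 12 was higher, beside 11.4% of tested genes. DUSP6, chosen after its values were seen, was at 255, 311 and 301 CPM in SCC and 270, 264 and 243 CPM in RCC, with SCC replicate 1 within the RCC range. Without SCC replicate 1, 4 genes of the pathway lists were called higher, namely EGR1, TIMP3, SHC1 and DUSP6.

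**Figure D5:**
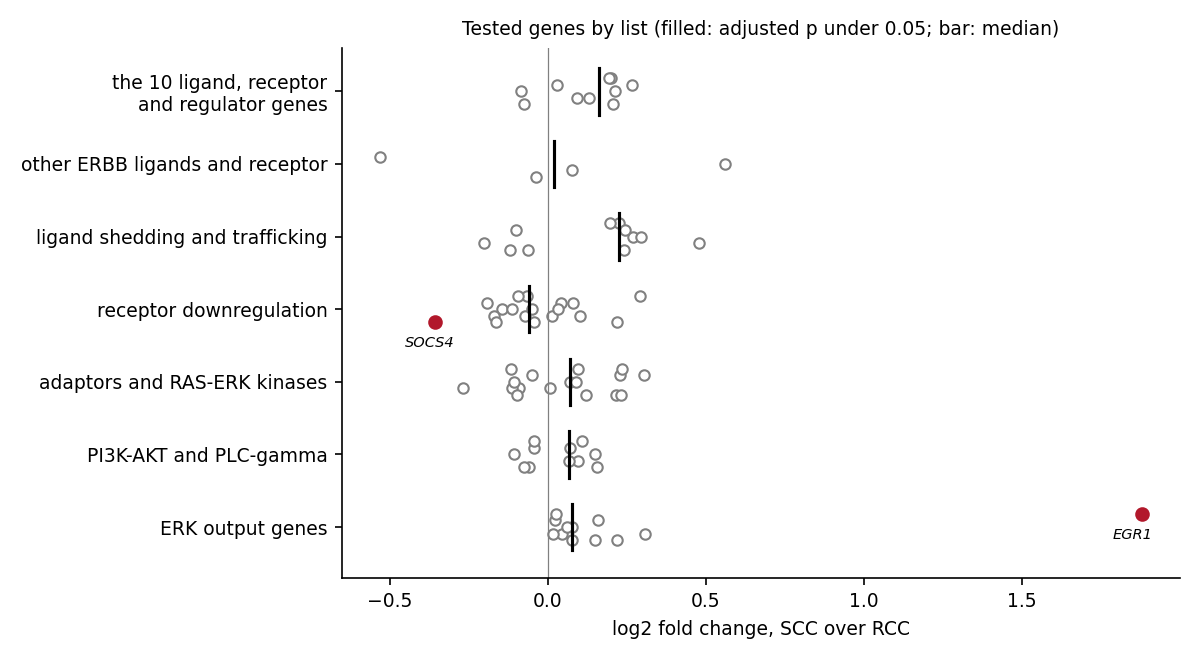
Log2 fold change of SCC over RCC (x axis) for the tested genes of each list (rows), with filled points for an adjusted p under 0.05 and a bar at each list's median. EGR1 at 1.88 and SOCS4 at -0.36 are the filled points, and the medians of the pathway lists lie between -0.06 and 0.23.

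The genes whose pattern over the 6 libraries was closest to HBEGF were ADGRF5, CTH and SLC2A3, with root mean square differences of 0.026, 0.028 and 0.030 in centred log2(CPM + 0.5), beside a median of 0.208 over all tested genes. For ERRFI1 they were AGR2 (0.024), ADGRF5 (0.025) and CD63 (0.028), beside a median of 0.194. HBEGF and ERRFI1 differed from each other by 0.044, and how many genes lay at least as close was not counted. The log2 fold changes of the named neighbours lay between 0.19 and 0.30, and none of them was called. They were picked for likeness over these same libraries, so similar fold changes follow from the choice. HBEGF and ERRFI1 were taken as the starting genes after their values were seen, because the naming rule asked for a called gene.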

How the data were processed

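RNA-seq libraries of 3 SCC and 3 RCC samples were compared. TRIzol extraction and an NEBNext Ultra kit are named, per the labels' protocols. The submitters' processing notes name HISAT2 2.0.5 and featureCounts 1.5.0-p3. The genome build, read filters and use of strand are not given in the sources used here. The deposited values are whole-number counts per gene and FPKM per gene, which the authors computed from those counts: each FPKM equalled the count divided by the deposited gene length and by 1 constant per library, 0.983 to 1.02 times the summed count. All 58735 rows had the positions of GENCODE release 29 on GRCh38.

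Counts were filtered with filterByExpr (minimum count 10), scaled by TMM and tested with edgeR 4.0.16 in R 4.3.3 (glmQLFit on group, two-sided quasi-likelihood F test). Benjamini-Hochberg adjustment ran over all 15881 tested genes, and an adjusted p under 0.05 was called. Standard errors were derived from each log2 fold change and its F statistic, and 95% intervals use the F test's degrees of freedom. The script was tested on simulated data. Alternatives were DESeq2 1.42.0, limma 3.58.1 on log2(FPKM + 1) and log2(FPKM + 0.1), other scalings and filters, a replicate block, each library left out, and a GC offset (lowess, span 0.3). GC content came from the longest GENCODE transcript, known for 15874 of the tested genes. The 10 genes and the lists were chosen with earlier results of these data known. Named beside the 10 were the called genes of the pathway lists, the gene with the smallest p in each list without a call, and the 3 protein-coding genes nearest in pattern. Apart from EGR1, the ERK output genes given with CPM values were named after their values were seen. Protein sequences were not used here. The CPM offset of 0.5 applies to descriptions only. The GC box and TATA motifs were added after seeing the data.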

Additional observations from a re-analysis of the deposited data

How the results depend on the processing

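The counts of calls moved with the processing. Over all genes, against 268 higher and 60 lower, edgeR gave 995 and 315 without a count filter, 523 and 245 with the GC offset, and 645 and 391 with the GC offset and SCC replicate 1 left out, a setting chosen after seeing the data. DESeq2 gave 120 lower genes. Limma gave 130 and 36 on log2(FPKM + 1), 117 and 34 on log2(FPKM + 0.1), and 48 and 1 on log2(FPKM + 1) without a filter. Leaving out 1 library at a time gave 99 to 642 higher and 8 to 343 lower genes. Among the 10 genes, 0 were called higher with all libraries, the count filter and no GC offset, 1 without a count filter, 3 with the GC offset, 4 with that offset and SCC replicate 1 left out, and 0 to 3 with 1 library left out; 0 were lower in each fit. Among the pathway lists, against 1 higher and 1 lower, there were 5 higher without a count filter, 2 with the GC offset, and 3 higher and 2 lower with that offset and SCC replicate 1 left out. Limma gave 0 lower genes in its 3 settings. Leaving out 1 library gave 1 to 4 higher and 0 to 2 lower. The cause of these shifts was not tested, and fewer libraries enter some of them.

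Log2 fold changes were followed through the alternatives for the chosen ligands and receptors, ERRFI1, ADAM17, EGR1, SOCS4, NRG2, TIMP3, SHC1 and AKT1. Among these, signs changed for 4, none of them called. ADAM17 was at 0.046 with the GC offset, or 0.016 with SCC replicate 1 also left out. AKT1 was at -0.049 with the offset. BTC was at 0.021 with the offset, and at -0.17 to 0.029 with 1 library left out. ERBB2 was at -0.037 with the offset and SCC replicate 1 left out. Other named genes, such as the remaining ERK output genes, were not followed in this way. In PHLDA1, the SCC libraries other than replicate 1 lay below all RCC libraries, so its CPM difference reverses without replicate 1.

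Libraries that share a replicate number showed no shared deviation from their groups, with correlations of -0.0091, 0.025 and -0.079, and none correlated best with its own number. The replicate block is therefore reported here only. It gave 350 higher and 106 lower genes, 0 calls among the 10, and 1 higher and 1 lower pathway gene. The block with the GC offset gave 621 higher and 432 lower genes, 3 of the 10 called higher, and 2 higher pathway genes. In it ADAM17 was at 0.043, AKT1 at -0.050 and BTC at 0.016.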

Other observations

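EREG, AREG, EPGN and BTC lie together on chromosome 4, next to a group of chemokine genes. CXCL2, which starts 268 kb before EREG, had a mean of 16.5 ± 0.57 CPM in SCC against 1.55 ± 0.37 in RCC (SD, n = 3), and edgeR gave a log2 fold change of 3.38 (adjusted p 1.5e-06). CXCL3 (1.93, adjusted p 0.0363) and CXCL8 (2.13, adjusted p 2.0e-04) were also called higher, and CXCL1 was not (1.17, adjusted p 0.107). Among all tested genes 1.69% were called higher. CXCL3 and CXCL1 were low, with means of 3.09 and 1.71 CPM in SCC and 0.83 and 0.77 in RCC. CXCL1, CXCL2, CXCL3 and CXCL8 were picked by name, and other chemokine genes of the region were not looked at here. MTHFD2L lies between CXCL2 and EPGN and differed by -0.16 on the log2 scale (adjusted p 0.533). EREG and AREG, on the far side of it, were at 0.094 and 0.13, and BTC, which starts 379.6 kb after EREG, at -0.083. The difference between these neighbours was not tested.

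EGFR-AS1, antisense within EGFR, had 9 counts in SCC replicate 2 and 12 in RCC replicate 2, against 29 to 36 in the other 4 libraries. Its log2 fold change between the groups was -0.08 (adjusted p 0.944). TGFA-IT1, an intronic transcript of TGFA, was at 0 counts in all 6 libraries.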
